A study of Mus musculus with 300 samples.

Results

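The cytosolic ribosomal protein genes are the genes for the protein parts of the ribosome that works in the cytosol. They were taken from the expression table by symbol: every gene named Rpl or Rps followed by a digit, together with Rpsa, Rplp0, Rplp1 and Rplp2, without the processed copies marked -ps and without the Rps6k kinases. This gave 89 genes of 13737 features, and it left out 55 -ps copies and 10 Rps6k genes. Of the 89, 31 are proteins of the small subunit and 46 are proteins of the large subunit. A further 6 are paralogues (Rpl22l1, Rpl36al, Rpl39l, Rps27l, Rpl7l1 and Rps4l), 5 are near-identical copies (Rpl37rt, Rps12l1, Rps3a2, Rps3a3 and Rps27rt), and Rps19bp1 encodes an Rps19-binding protein and matched by its symbol only. The symbols Rpl3l and Rpl10l, paralogues of Rpl3 and Rpl10, were not analysed here.

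Ribosomes are assembled from ribosomal RNA and one copy of most ribosomal proteins, so cells make these proteins in matched amounts. The mRNAs of vertebrate ribosomal proteins start with a C followed by a run of pyrimidines, the 5′ terminal oligopyrimidine (TOP) tract, through which the mTOR pathway and the RNA-binding protein LARP1 control their translation. Myc family factors are known to raise ribosome production in growing cells, and the thymus is a tissue where single members matter: in mice, loss of Rpl22 blocks the development of alpha-beta T cells, and Rpl22 protein represses its own paralogue Rpl22l1. Kit, the stem cell factor receptor, and Mycn, a Myc family factor, are both active in early thymic progenitors.

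The cells were early thymic progenitors (ETPs), the first T-lineage precursors in the thymus, sorted singly from the thymus of E15.5 embryos. The strain is labelled 5x polychromILC and carries reporters at loci of lymphoid factors, among them Id2, Gata3, Rora and Bcl11b, and all cells share this genotype. The labels name 1 population, 4 mouse ids (1A, 1B, 2A and 2B), no treatment and no control, and they do not say how the gate was drawn or whether an id is 1 embryo. The Smart-seq2 protocol, which primes with oligo-dT and amplifies whole transcripts without molecular identifiers, gave 300 labelled cells. The authors' deposited table of normalized, batch-corrected log2 values holds 261 of them, which are 67 cells labelled 1A, 69 labelled 1B, 64 labelled 2A and 61 labelled 2B, and 39 were not analysed here.

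Several facts of the table touch every value below. The number of detected genes was the only measure of depth, with a median of 7782 per cell (5073 to 10337). The cells fall into 4 sets that carry separate corrections, recognised by exact shared values, and mice 2A and 2B share sets 2 and 4, so the 4 mouse ids may not be 4 independent units. The cells were not all alike by markers. Clustering on genes other than the ribosomal protein genes put 68 cells in 4 clusters led by markers of other cell types, 17 cells in an unnamed cluster led by Gm9892 and Gm10800, and the remaining 176 cells in 3 clusters, led by Mpo, Mycn and Kit, by mitotic genes such as Plk1 and Aurka, and by Mybl2, Ccna2 and Rrm2. Of the 12 progenitor markers, the median cell had 8 detected in the clusters of other types (3 to 12), 8 in the unnamed cluster (5 to 12) and 10 in the remaining cells (7 to 12).

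Sequence shared between genes limits what a single row can say. By GENCODE type, 84 of the 89 genes are protein-coding and 5 are pseudogenes (Rpl37rt, Rps12l1, Rps4l, Rps3a2 and Rps3a3). For 63 of the 89, the larger part of the 31-base words of their transcript also occur in another gene, with a median of 63.3%. Rps27 shares 98.7% of its words with Rps27rt and Rps12 shares 79.5% with Rps12l1, so reads of these pairs can be split between rows in either way, and values of such rows are uncertain. Levels were not compared between genes, because the sources used here do not say whether the deposited values are scaled by transcript length.

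The class's best known sequence feature, a run of pyrimidines at the start site, was looked for in the annotated start regions of these genes. RefSeq start regions (GRCm38.p6, 250 bases before to 50 after the start) were matched for 64 of the 89 genes. A run of at least 8 pyrimidines that covers the start base was present in 17 of the 64 (26.6%), against 435 of 8949 genes tested (4.86%). The 60 bases around the annotated start are printed for 7 genes with such a run, in capitals, and for 4 genes without one. Most of the 64 genes had no such run, so the printed genes do not show the proportion.
Rps6, chr4:86857338-86857397, minus strand: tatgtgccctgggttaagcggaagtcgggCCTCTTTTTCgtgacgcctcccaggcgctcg
Rps18, chr17:33955636-33955695, minus strand: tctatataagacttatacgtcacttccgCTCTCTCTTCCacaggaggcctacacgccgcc
Rps27, chr3:90213619-90213678, minus strand: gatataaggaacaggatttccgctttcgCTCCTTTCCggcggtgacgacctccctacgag
Rpl7a, chr2:26910777-26910836, plus strand: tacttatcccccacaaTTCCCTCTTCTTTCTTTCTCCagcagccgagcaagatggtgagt
Rpl27a, chr7:109519165-109519224, plus strand: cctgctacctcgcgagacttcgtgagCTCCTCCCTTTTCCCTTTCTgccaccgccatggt
Rpl34, chr3:130730308-130730367, minus strand: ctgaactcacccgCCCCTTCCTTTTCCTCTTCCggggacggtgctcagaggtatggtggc
Rplp2, chr7:141447621-141447680, plus strand: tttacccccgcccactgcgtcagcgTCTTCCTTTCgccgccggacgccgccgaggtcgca
Rpsa, chr9:120127736-120127795, plus strand: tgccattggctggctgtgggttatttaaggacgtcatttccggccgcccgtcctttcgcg
Rplp0, chr5:115559437-115559496, plus strand: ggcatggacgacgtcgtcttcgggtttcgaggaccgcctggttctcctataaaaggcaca
Rpl10, chrX:74270786-74270845, plus strand: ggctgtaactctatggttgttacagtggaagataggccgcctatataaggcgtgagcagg
Rpl22l1, chr3:28805478-28805537, plus strand: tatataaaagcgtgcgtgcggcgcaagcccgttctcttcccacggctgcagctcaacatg
The longest of the runs shown, in Rpl7a, spans 21 bases, and that of Rps27 spans 9. In the 300-base windows, searched on both strands, CTTTCC was present in 53.1% of the members against 30.2% of the genes tested. CCGGAAG, a form of the site known for Ets family factors, was present in 39.1% against 21.6%, and TATAAA in 10.9% against 8.54%. An annotated start can lie some bases from the start used in these cells, so the absence of a run says only that these letters are not at the annotated base.

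Ribosomal protein transcripts were present in nearly every cell. Of the 89 genes, 79 were detected in all 261 cells, where detected means above the repeated lowest value of the gene and a lone cell without reads in its set cannot be recognised. The other 10 were Rpl5 (255 cells), Rpl22l1 (252), Rpl7l1 (250), Rpl17 (236), Rpl12 (228), Rps4l (203), Rps12 (198), Rps19bp1 (193), Rps27rt (165) and Rpl39l (12). Rpl39l, a paralogue of Rpl39 known from testis, is the only one under the detection limit of 10% of cells, and 88 genes were therefore tested. Rpl39l was detected in 0 of 67 cells in mouse 1A, in 1 of 69 in 1B, in 5 of 64 in 2A and in 6 of 61 in 2B.

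The mean level of the 88 genes was near the same in the 4 mouse ids. Its median over cells was 8.17, 8.06, 8.09 and 8.17 on the deposited log2 scale in ids 1A, 1B, 2A and 2B, and 8.12 over all cells (6.37 to 9.83). On the linear scale the 89 genes took a median of 4.38% of a cell's summed value, with a range of 1.08 to 11.2%. For 82 of the 89 genes the medians of the 4 mouse ids lay within 0.5 log2 units. No such count over other genes is given here, so this closeness is not shown to be particular to these genes. The widest range, 3.98, was that of Rps27rt, which had no reads recognised in many cells of each mouse. The values were batch-corrected in sets that partly follow the mouse ids, and such a correction can bring the medians of ids together. Its part in the closeness of the ids was not tested.

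**Figure D1:**
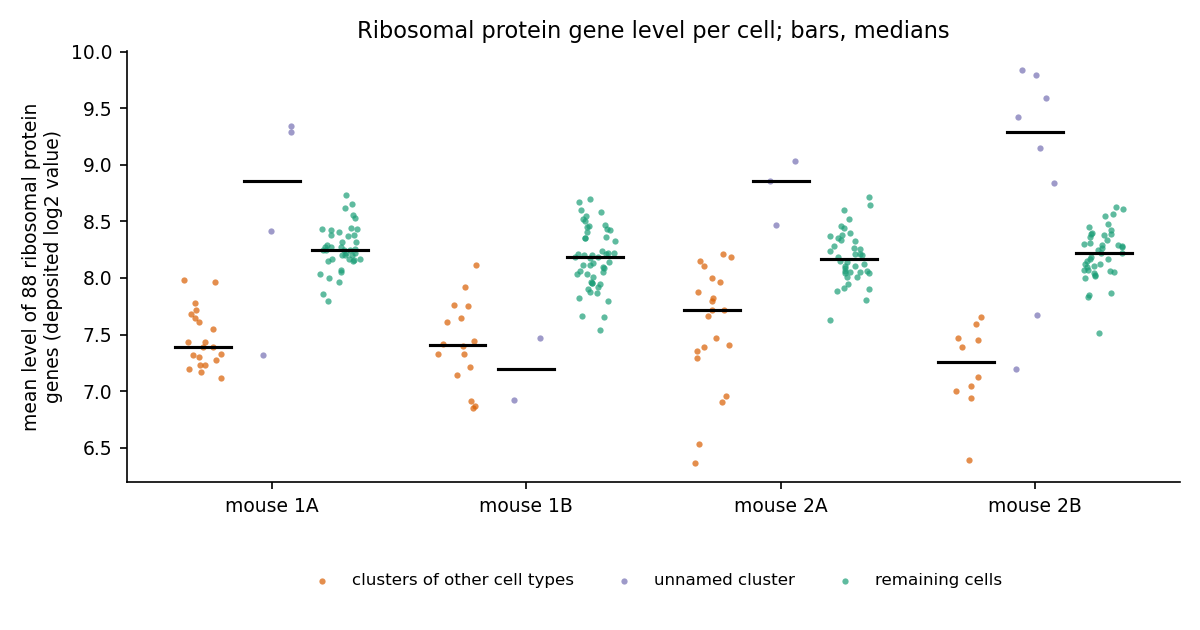
Mean level of the 88 ribosomal protein genes (vertical axis, deposited log2 value) in each cell, by mouse id; within an id, cells of clusters of other types stand left, the unnamed cluster in the middle and the remaining cells right, and bars are medians. The medians of the other-type clusters lie between 7.26 and 7.71 and those of the remaining cells between 8.17 and 8.25.

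Single genes of each role show the same stability between mouse ids. Rps6, the small-subunit protein phosphorylated by the S6 kinases, had medians of 10.38, 10.28, 10.33 and 10.23 in ids 1A, 1B, 2A and 2B, with a range over all cells of 6.93 to 11.89. Rpsa, a small-subunit protein also known as the laminin receptor precursor, had medians of 11.39, 11.32, 11.38 and 11.38 (9.15 to 12.45). Rpl3, which reaches toward the peptidyl transferase centre, had medians of 12.24, 12.11, 12.12 and 12.20 (9.40 to 13.08). For these genes the difference between mouse ids was small beside the spread over cells.

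The stalk of the large subunit, which recruits translation factors, is built on Rplp0 with the acidic proteins Rplp1 and Rplp2. Rplp0 had medians of 12.09, 12.11, 12.13 and 12.06 in ids 1A, 1B, 2A and 2B, with a range of 9.90 to 12.98 over all cells. Rplp1 had medians of 8.29, 8.26, 8.31 and 8.40, and Rplp2 of 7.87, 7.71, 7.70 and 7.88. Rpl10, which joins the large subunit late in its assembly, had medians of 8.35, 8.42, 8.31 and 8.19 (3.49 to 10.21). Rps27a, made as a fusion with ubiquitin, had medians of 8.41, 8.25, 8.44 and 8.43. None of these 5 genes had mouse medians more than 0.5 log2 units apart.

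The RNA-binding protein gene Rpl22 and its paralogue Rpl22l1 varied more between cells. Rpl22 had medians of 6.96, 6.37, 6.67 and 6.87 in ids 1A, 1B, 2A and 2B, with a range of -0.10 to 10.11 over all cells. Rpl22l1 had medians of 6.12, 6.16, 6.10 and 6.45 (-0.97 to 9.55) and went undetected in 9 cells, all of them in clusters of other types. Rps27l, a paralogue of Rps27 known as a p53 target, had medians of 7.16, 7.12, 6.90 and 7.35 (0.46 to 10.30). The ranges of the 4 mouse ids overlap for all 3 genes.

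The genes varied together from cell to cell. For the 3828 pairs of the 88 genes, the partial Spearman correlation was taken, on ranks adjusted for the count of detected genes and plate. Its median over the cells of a mouse was 0.321, 0.300, 0.377 and 0.534 in ids 1A, 1B, 2A and 2B (mean 0.383 ± 0.105, SD of the 4 ids). For pairs of 2354 other genes detected in over 90% of cells it was 0.028, 0.032, 0.038 and 0.076. The first principal component of the 88 genes held 27.9, 24.5, 27.2 and 43.7% of their variance. In the remaining cells alone, without the clusters of other types and the unnamed cluster, the pair medians were 0.202, 0.229, 0.225 and 0.226 against 0.028, 0.037, 0.031 and 0.027 for the other widely detected genes. The members' mean level also followed the mitochondrial share of a cell. Here the Spearman correlations, without adjustment, were 0.553, 0.515, 0.499 and 0.344 over all cells and -0.13, 0.111, 0.147 and 0.068 over the remaining cells. These correlations are descriptions over cells that share a plate, a library pool and a correction, and genes with shared sequence share reads.

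Most members followed the mean of the others. Each gene's correlation with the mean of the other members was again a partial Spearman correlation, adjusted for detected genes and plate. Averaged over the 4 ids, it had a median of 0.605 across the 88 genes, against 0.039 for 12351 other genes tested and 0.330 for 53 -ps copies. It was highest for Rps18 (0.759 ± 0.100), and was 0.730 ± 0.082 for Rpl32. Small-subunit and large-subunit proteins were alike, with medians of 0.618 over 31 genes and 0.605 over 46. In the remaining cells the median over all 88 was 0.458, against 0.033 for the other genes.

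A few members did not follow. Rps4l, annotated as a pseudogene, had a correlation of -0.10 ± 0.04, Rps19bp1 0.087 ± 0.163 and Rpl7l1, a nucleolar paralogue of Rpl7, 0.101 ± 0.137. Rps12 (0.160), Rps27rt (0.212), Rpl10 (0.241), Rpl12 (0.317) and Rpl22 (0.337) came next. In the remaining cells Rpl22 had 0.025 and Rpl12 0.076, while Rpl10 kept 0.235. Of the 31-base words of Rpl10, 92.3% occur in Rpl10-ps3, so the row of Rpl10 is uncertain. For Rps12 the row is uncertain too, because of the words it shares with Rps12l1. Another measure, the Spearman correlation without adjustment, was taken with the mean of the members outside this pair. By it Rps12 had 0.223 ± 0.117, Rps12l1 had 0.678 ± 0.058 and their summed linear value had 0.617 ± 0.099. The sum follows Rps12l1, whose median value in the remaining cells was 7.49 beside 3.91 for Rps12, and says little about Rps12.

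**Figure D2:**
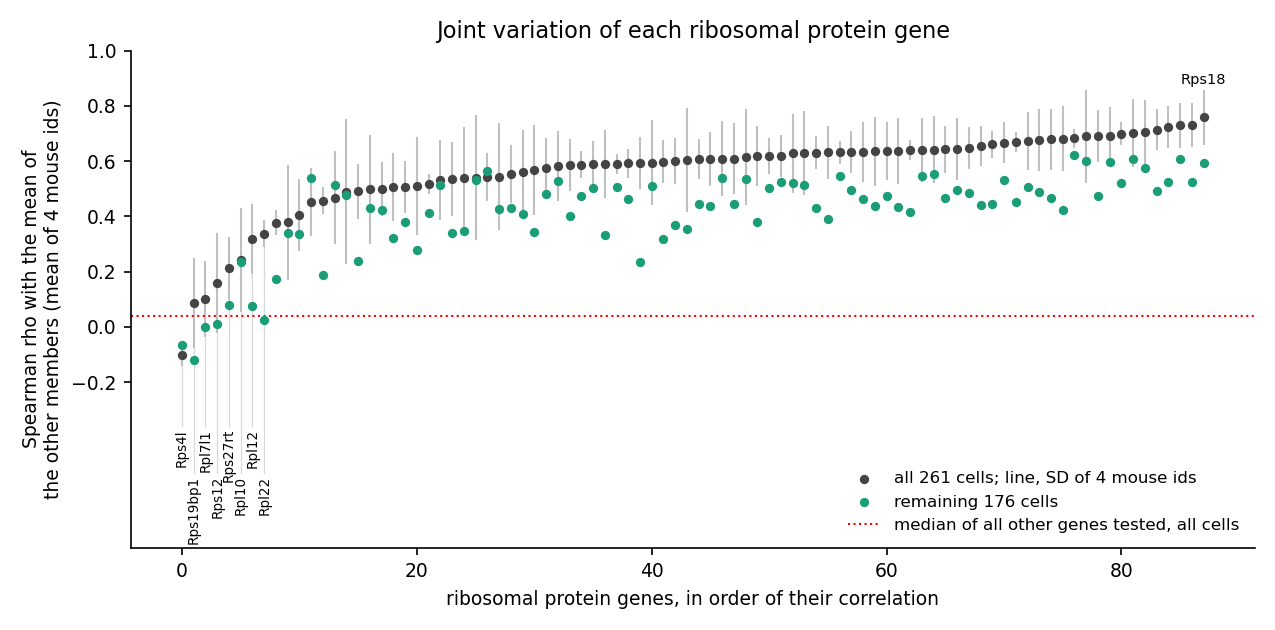
Each of the 88 genes in order of its Spearman correlation with the mean of the other members (vertical axis), adjusted for detected genes and plate. Black points are means of the 4 mouse ids over all cells with lines of 1 SD, green points are means over the remaining cells, and the dotted line is the median of all other genes. Rps18 is highest at 0.759 and Rps4l is lowest at -0.10.

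Paralogues and their parents were only weakly related over cells. The correlations of these pairs are Spearman correlations without adjustment for detected genes or plate. Rpl22l1 and Rpl22 had a mean correlation of 0.239 ± 0.128 over the 4 ids in all cells and of -0.09 ± 0.09 in the remaining cells. Rpl36al, a retrotransposed copy of Rpl36a, had 0.212 ± 0.163 with it in all cells and 0.065 ± 0.149 in the remaining cells. Rps27l with Rps27 had 0.034 ± 0.168, Rpl7l1 with Rpl7 0.083 ± 0.220 and Rps4l with Rps4x -0.17 ± 0.11. Rpl37rt and Rpl37 had 0.705 ± 0.117. Of the 31-base words of Rpl37rt 88.3% occur in Rpl37, and of those of the longer Rpl37 35.3% occur in Rpl37rt, so the pair can exchange reads.

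Outside the members and the -ps copies, the genes most like the members were mainly unnamed copies and abundant housekeeping genes. The -ps copies, of which the highest had a partial Spearman correlation of 0.692 with the members' mean, were left out. The 10 highest partial Spearman correlations with the members' mean belonged to Gm2000 (0.719), Gm4332 (0.704), Gm9794 (0.692), Gm10076 (0.672), Gm10288 (0.655), Gm28900 (0.652), Gm15516 (0.651), Ppia (0.650), Gm15500 (0.648) and Gm10123 (0.645), each a mean over 4 ids. Ppia encodes the prolyl isomerase cyclophilin A. Some of the Gm genes hold sequence of members. Gm10076 holds 64.6% of the 31-base words of Rpl41, Gm10288 59.3% of those of Rpl11, Gm15500 49.03% of Rpl5, Gm2000 40.9% of Rpl35, Gm9794 35.2% of Rpl23 and Gm4332 7.75% of Rps20. How many reads such pairs exchange was not tested.

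The clearest split among the cells was by cluster. The 68 cells in clusters of other types had a median member level of 7.42 (6.37 to 8.22), and the remaining 176 cells had 8.21 (7.51 to 8.73). Their share of the summed linear value was 2.82% in the other-type clusters and 4.60% in the remaining cells. Within ids 1A, 1B, 2A and 2B the level medians were 7.39, 7.41, 7.71 and 7.26 in the other-type clusters, against 8.25, 8.18, 8.17 and 8.22 in the remaining cells. The ranges of the groups overlap in each mouse id; in 2B the other-type cells reach 7.66 and the remaining cells start at 7.51.

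The lower level was wide over the members, but it was also wide over the rest of the transcriptome. The mean log2 value was lower in the other-type clusters for 85 of the 88 genes (96.6%), with a median difference of -0.74, and 80 (90.9%) were lower in all 4 mouse ids. Of 12351 other genes, 78% were lower (median difference -0.69) and 49% in all 4 ids. Of the 2354 widely detected genes, 87.6% were lower (median -1.19) and 68.6% in all 4 ids. The other-type cells had a median of 6745 detected genes and the remaining cells 8071, and whether these genes were lower for themselves or with the transcriptome in general cannot be told apart on the log2 scale. No test was made, since the clusters were defined on these cells.

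The members differed in how far they were lower. The mean differences for Rpl12, at the base of the stalk, Rpl17, at the exit tunnel, and Rpl5, which carries the 5S RNA and binds Mdm2, were -2.22, -2.19 and -2.12. Rpl12 was detected in 43 of the 68 other-type cells and in 170 of the 176 remaining cells, Rpl17 in 50 and 170, and Rpl5 in 63 and 175. Rpl22l1 had a median of 5.16 in the other-type cells and 6.32 in the remaining cells (mean difference -1.53), and Rpl22 had 5.86 and 6.94 (-1.33). Rps27, Rps27rt and Rps4l were the 3 members with a mean above that of the remaining cells, by 0.10, 0.16 and 0.07, and none of the 3 was higher in all 4 mouse ids. In ids 1A, 1B, 2A and 2B the differences were 0.56, 0.19, 0.01 and -0.76 for Rps27, -0.56, -0.14, 2.10 and -1.29 for Rps27rt, and -1.02, 0.93, 0.08 and 1.05 for Rps4l. Rps2, near the mRNA entry of the small subunit, had a median of 10.32 in the other-type cells, against 11.53 in the remaining cells.

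The 4 clusters of other types were not the same. Of the marker lists for other types, the median cell of these clusters had 4.5 of 12 NK/ILC markers detected (0 to 12), 8 of 11 dendritic (2 to 11), 3 of 9 macrophage (0 to 9) and 1.5 of 7 mast and basophil markers (0 to 7). The remaining cells had 3 of 12 (0 to 9), 6 of 11 (2 to 10), 3 of 9 (0 to 9) and 2 of 7 (0 to 6), so low detection of these markers was common in them too. The summed log2 level of the dendritic list ran from 1.35 up to 118.8 in the other-type clusters and from 3.98 up to 44.4 in the remaining cells. The dendritic-like cluster, led by Siglech, Irf8 and Spib, held 19 cells with a member share of 2.62%. There 81 of 88 members had a lower mean, Rpl22l1 was detected in 11 of 19 cells with a mean difference of -2.92, and Rpl22 had a difference of -2.0, while Rps27 (0.72), Rpl31 (0.71) and Rpl36al (0.51) stood above the remaining cells. The natural killer and innate lymphoid-like (NK/ILC-like) cluster, led by Il2rb, Ctsw and Klrk1, held 23 cells, none of mouse 2B, with a share of 3.22%. It had the smallest median difference of the 4 clusters, -0.56, and its differences for Rpl22 (-0.70) and Rpl22l1 (-0.74) were smaller than in the dendritic-like cells. The cluster led by Cd74, Csf1r and Apoe held 17 cells with a share of 3.19%, and 87 of 88 members had a lower mean there. The mast and basophil-like cluster, led by Hdc, Mcpt8 and Prss34, held 9 cells with a share of 2.38%, and Rpl12 was detected in 4 of them. Of the 32 cells that stand first in the 4 correction sets (8 a set, in order of plate and well), 25 were in clusters of other types and 20 of these were NK/ILC-like, so position in a set moves with cluster, and its part in these levels was not tested.

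Within the remaining cells the 3 clusters were close. The member share was 4.92% in the cluster led by Mpo, Mycn and Kit (57 cells), 4.45% in the mitotic cluster (38 cells) and 4.48% in the third (81 cells). The medians of the mean level were 8.25, 8.17 and 8.21.

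The unnamed cluster stood on the other side. Its 17 cells, with 4 from mouse 1A, 2 from 1B, 3 from 2A and 8 from 2B, had a median member level of 8.86 (6.92 to 9.83) and a share of 6.99%, against 8.21 and 4.60% in the remaining cells. The level was not uniform: the 2 cells of mouse 1B had a median of 7.19, and the 8 of mouse 2B had 9.29. These cells had fewer detected genes (median 6564 against 8071) and a higher mitochondrial share (4.24% against 3.37%), and the part of RNA quality in the result was not tested.

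In the unnamed cluster the difference followed transcript length. Length was that of the shortest annotated transcript with a consensus coding sequence tag, where a gene had such a transcript. It need not be the transcript expressed in these cells. The median difference from the remaining cells was 0.78 for the 44 shorter members, of which 42 were higher, and 0.19 for the 44 longer members, of which 29 were higher. Across the 88 members the Spearman correlation of the difference with transcript length was -0.61, and across 12204 other genes it was -0.16. Rps27 had a mean difference of 1.41, Rps27l 1.14 and Rpl22l1 0.97, and their transcripts span 345, 499 and 525 bases. Rplp0 (1358 bases) had -0.54, Rpl3 (1351 bases) -0.43 and Rps2 (998 bases) -0.72. In the dendritic-like and NK/ILC-like clusters the members' correlation with length was -0.42 and -0.43, and for the other genes -0.03 and -0.05. It was -0.37 in the mast and basophil-like cluster and -0.23 in the Cd74-led cluster. The 3 remaining clusters, each set against the other remaining cells, had -0.19 (led by Mpo, Mycn and Kit), 0.34 (mitotic) and 0.05, so the direction was not shared by all clusters. Genes are not independent replicates, and these correlations carry no test.

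**Figure D3:**
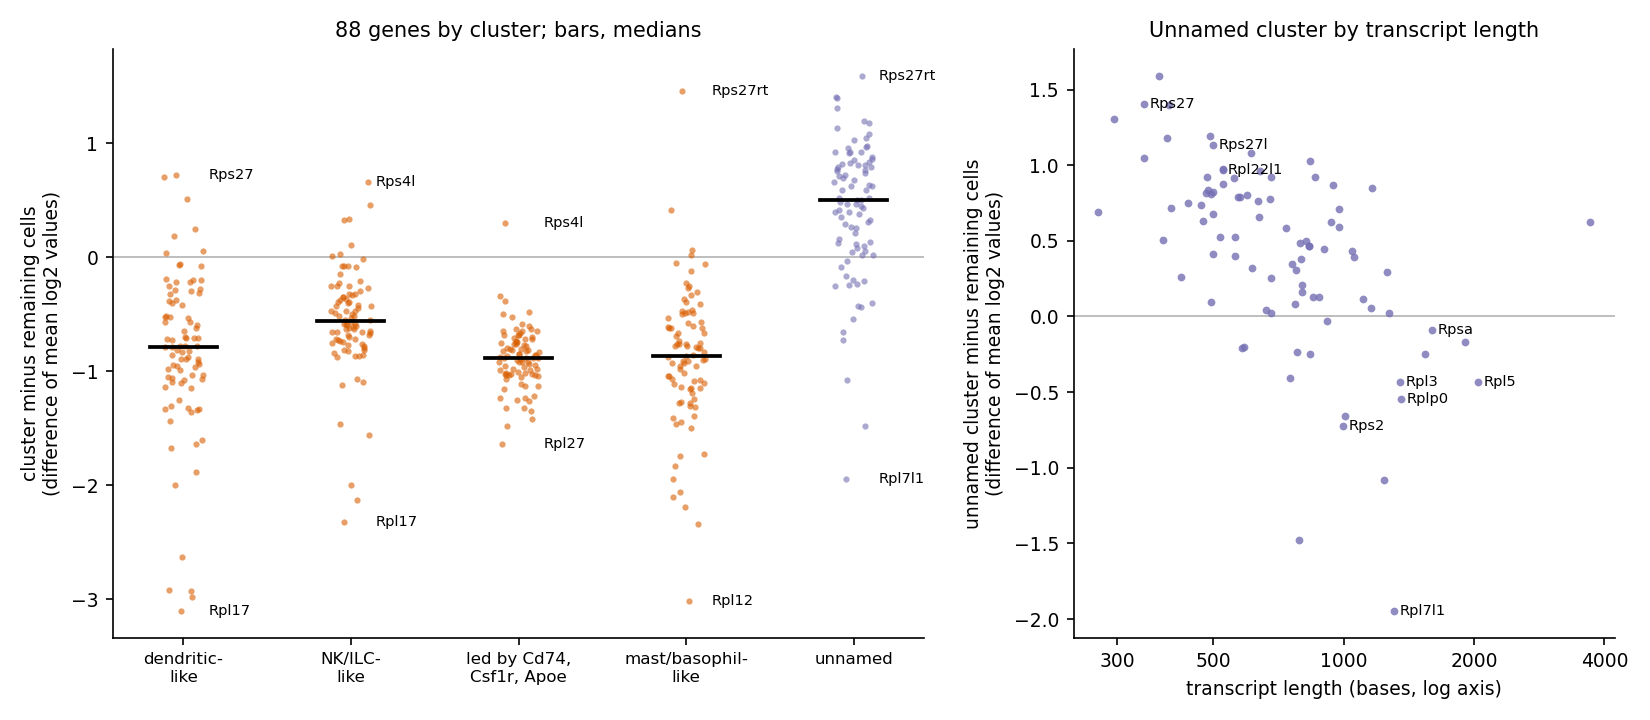
Left, the difference of mean log2 values between each cluster and the remaining cells for each of the 88 genes, with bars at the medians and the extreme genes named; right, the same difference for the unnamed cluster against transcript length in bases (log axis). The medians are -0.79, -0.56, -0.88 and -0.86 in the 4 clusters of other types and 0.50 in the unnamed cluster, where short transcripts lie highest.

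Kit was the first measure the genes were set against. For each gene the slope of its log2 value per 1 SD of Kit was fitted inside each mouse id, with plate and the count of detected genes as covariates, and the 4 slopes were tested with limma. Of the 88 members, 87 had a positive mean slope, with a median of 0.29 against 0.08 over all 12438 genes tested and 0.16 over the 7793 of them detected in at least 50% of cells. The members' median was 0.21, 0.16, 0.41 and 0.39 in ids 1A, 1B, 2A and 2B. At an adjusted p of 0.05, 5 members rose with Kit (5.68%) and none fell, against 3.01% of all genes tested called higher and 2.08% called lower. Their adjusted p lay between 0.0407 and 0.0495. No member was called once any 1 mouse id was left out, against 0.587% to 1.74% of all genes called higher. With the correction set in place of the plate as a covariate, none of the 88 was called, against 1.22% of all genes called higher, and the members' median slope was 0.28.

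The 5 called members were 4 small-subunit proteins and the stalk protein Rplp0. Rps4x, an X-linked small-subunit protein, had slopes of 0.40, 0.25, 0.59 and 0.49 in ids 1A, 1B, 2A and 2B, a mean of 0.43 ± 0.15 (SD) and an adjusted p of 0.0478. Rps3a1 had a mean of 0.41 ± 0.11 (adjusted p = 0.0495), Rps19, a gene mutated in human Diamond-Blackfan anaemia, 0.40 ± 0.10 (0.0458), and Rps2 0.34 ± 0.16 (0.0495). Rplp0 had slopes of 0.21, 0.23, 0.29 and 0.41, a mean of 0.28 ± 0.09 and an adjusted p of 0.0407. All 5 were positive in each of the 4 ids. Rpl36a had the highest slope of all members, 0.60 ± 0.22, without being called (adjusted p = 0.0838), and Rps4l the lowest, -0.18 ± 0.22 (0.648). Rpl22 had 0.42 ± 0.18 (0.182), Rpl22l1 0.46 ± 0.24 (0.180), Rps6 0.33 ± 0.21 (0.111), Rpsa 0.25 ± 0.17 (0.130), Rpl3 0.24 ± 0.17 (0.102), Rps27l 0.24 ± 0.19 (0.428) and Rpl10 0.05 ± 0.25 (0.883).

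The count of called members depended on the form of the test far more than the direction did. With partial Spearman correlations in place of slopes, 58 of 88 members rose with Kit and none fell, against 5.15% of all genes called higher and 1.13% called lower. When each cell was first centred on the median of the other widely detected genes, the median slope of all genes was -0.10 and the members' median was 0.11. Of the members 82 were positive and none was called, against 1.16% of all genes called higher (7 members had an unadjusted p under 0.05). Centring moves every gene's slope by the same amount and leaves the distance between the members and all genes as it was.

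The slopes on Kit were also fitted without the clusters of other types, with Kit standardized anew in the cells kept. A step of 1 SD there is not the step of all cells, so these slopes and those in all cells are not in the same unit. Without the 68 cells of those clusters, the members' median slope was 0.03, against 0.03 for all genes. Of the members 63 of 88 were positive and none was called, nor was any other gene (1 member had an unadjusted p under 0.05). Rps4x, called in all cells, had -0.01 and Rplp0 0.09. Kit itself had a median of 1.91, 1.20, 2.20 and 5.28 in the dendritic-like, NK/ILC-like, Cd74-led and mast/basophil-like clusters, against 9.08, 8.62 and 8.41 in the 3 remaining clusters. The Spearman correlation of the mean member level with Kit, without adjustment, was 0.471, 0.446, 0.601 and 0.363 in ids 1A, 1B, 2A and 2B with all cells. In the remaining cells it was -0.03, 0.098, 0.383 and -0.03.

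**Figure D4:**
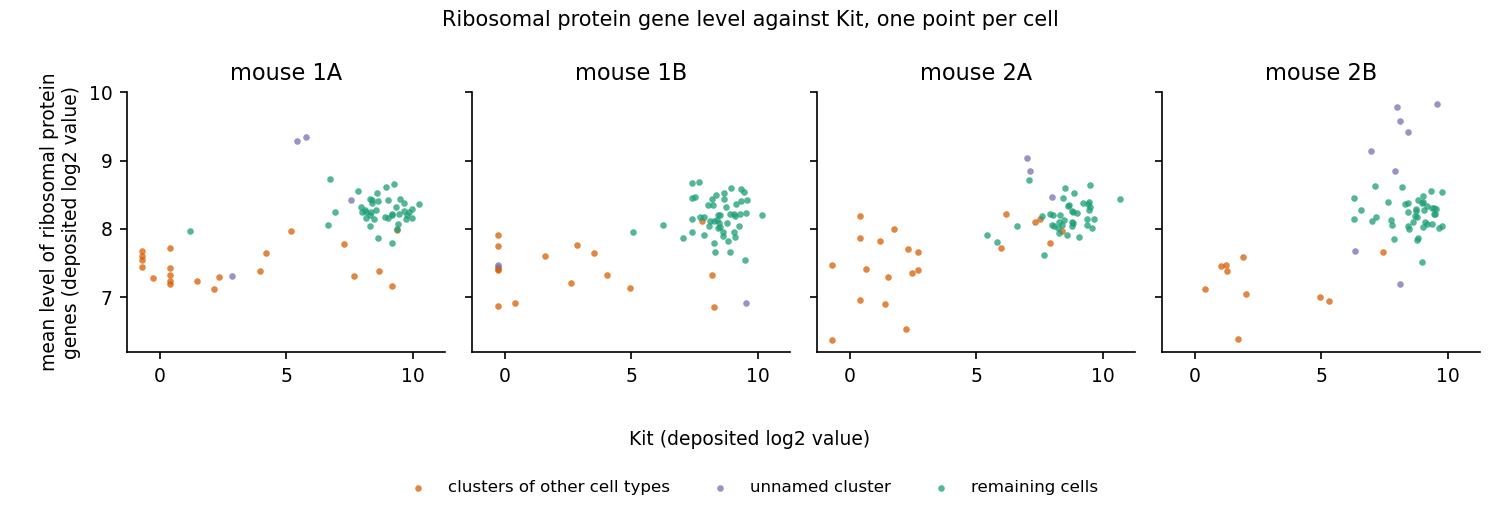
Mean level of the 88 ribosomal protein genes (vertical axis, deposited log2 value) against Kit (horizontal axis, deposited log2 value) for each cell, in 1 panel per mouse id, coloured by group of cells. Cells of other-type clusters sit mostly at low Kit and low member level, and the remaining cells form 1 cloud at high Kit.

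Mycn gave the same picture. All 88 members had a positive mean slope, with a median of 0.25 against 0.07 over all genes and 0.15 over those detected in at least 50% of cells, and none was called, against 1.98% of all genes called higher and 1.33% called lower. At an unadjusted p of 0.05, 36 members passed. With rank-based partial correlations 35 members rose and none fell, against 2.31% of all genes called higher and 0.49% called lower. Rpl12 had the highest slope, 0.46 ± 0.23 (adjusted p = 0.223), Rpl22 had 0.40 ± 0.14 (0.190) and Rpl22l1 0.38 ± 0.25 (0.262), while Rpl3 had 0.24 ± 0.15 (0.0663) and Rplp0 0.22 ± 0.14 (0.0822). Rps4l was lowest at 0.03 ± 0.42. Without the clusters of other types, with Mycn standardized anew, the members' median was 0.01 against 0.02 for all genes, and 50 were positive. With centred cells the members' median was 0.09.

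The cell cycle measures were set against the members next. With the S phase list of 43 genes, 85 of 88 members had a positive slope, with a median of 0.16 against 0.05 over all genes. Over the genes detected in at least 50% of cells, as all 88 members are, the median was 0.14, and without the depth covariate the members' median of 0.20 was below the 0.25 of all genes. The members' median was 0.14, 0.05, 0.04 and 0.34 in ids 1A, 1B, 2A and 2B, and 0.09 with mouse 2B left out. Rpsa alone rose, against 5.27% of all genes called higher and 1.57% called lower: its slopes were 0.41, 0.28, 0.17 and 0.43 in ids 1A, 1B, 2A and 2B, with a mean of 0.32 ± 0.12 and an adjusted p of 0.0175. Rps12 had the highest slope, 0.45 ± 0.60 (0.304), and Rps27 the lowest, -0.09 ± 0.26 (0.762). Rank-based partial correlations called 10 members higher and none lower, against 5.52% and 0.912% of all genes. The sign of the group depended on the scaling: with centred cells only 6 of 88 slopes were positive, the members' median was -0.15 and that of all genes -0.25, and 1 member was called lower, against 20.7% of all genes. Without the clusters of other types, with the measure standardized anew, the median was 0.02 and Rpsa had 0.10. No member was called there, against 0.737% of all genes called higher.

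With the G2M list of 51 genes, which covers late cell cycle and mitosis, the members showed no common slope. The median was 0.01 against 0.02 over all genes, 57 of 88 were positive, and none was called at an adjusted or an unadjusted p of 0.05, against 2.39% of all genes called higher and 0.476% called lower. The rank-based form also called none, against 3.78% and 0.985% of all genes, with 2 members under an unadjusted p of 0.05. Rps4l was highest at 0.32 ± 0.23 and Rps27rt lowest at -0.33 ± 0.30. With centred cells 7 of 88 were positive and the median was -0.11.

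The innate measure was the mean of 28 genes of natural killer and innate lymphoid cells, among them Id2, Il2rb and Zbtb16. The members' median slope was -0.02 against -0.03 over all genes, 34 of 88 were positive, and none was called, against 0.508% of all genes called higher and 0.0242% called lower. No member passed an unadjusted p of 0.05, and 1 did in the rank-based form, which also called none, against 0.564% of all genes called higher and 0.0645% called lower. Rps12 was highest at 0.26 ± 0.36 (adjusted p = 0.630) and Rpl12 lowest at -0.21 ± 0.33 (0.703). The members' medians were -0.11, -0.06, -0.01 and 0.15 in ids 1A, 1B, 2A and 2B, and mouse 2B had no NK/ILC-like cells. Without the clusters of other types, with the measure standardized anew, the median was 0.04 with 70 positive. With centred cells it was -0.07.

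**Figure D5:**
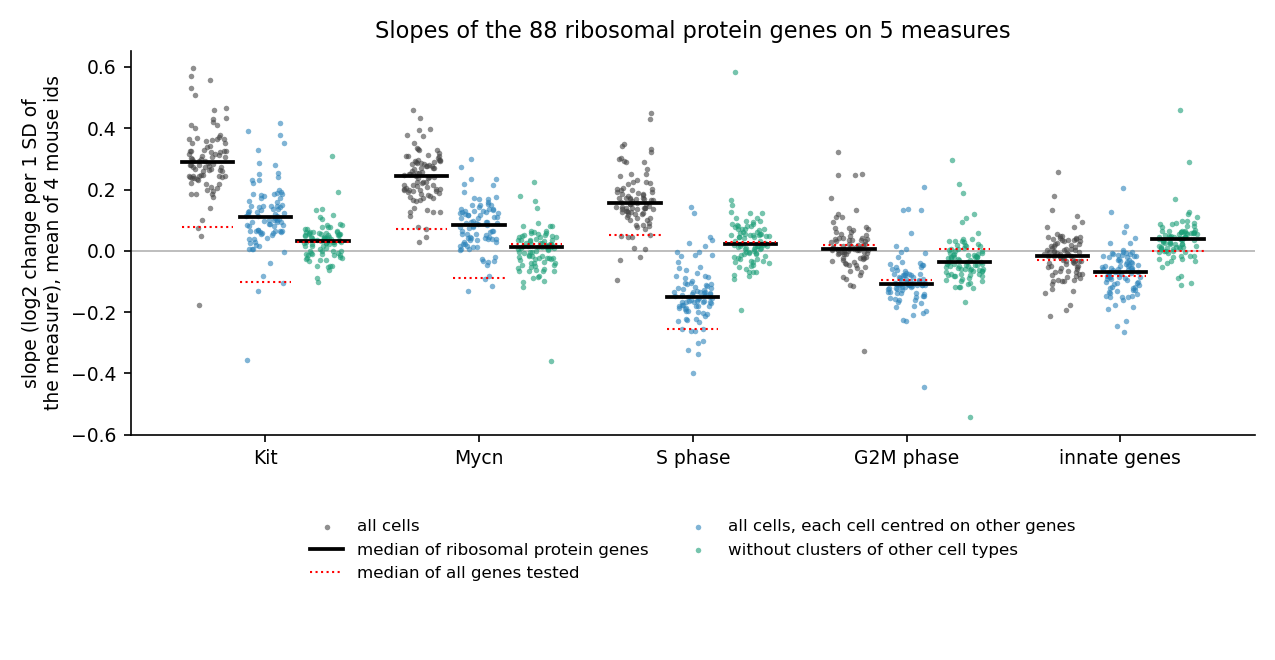
Slope of each of the 88 genes (vertical axis, log2 change per 1 SD of the measure, mean of 4 mouse ids) on Kit, Mycn, S phase, G2M phase and innate genes, for all cells, for cells centred on other widely detected genes and without the clusters of other types; black bars are medians of the 88 genes and dotted red bars medians of all genes tested. The Kit and Mycn medians are 0.29 and 0.25 in all cells, and 0.03 and 0.01 without those clusters, where each measure was standardized anew.

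Genes that build or serve ribosomes were read from the same fits. Of 55 ribosome biogenesis genes, 13 rose with Kit, 13 with Mycn and 18 with S phase, and none fell, where 3.01%, 1.98% and 5.27% of all genes were called higher, with median slopes of 0.54, 0.55 and 0.48. Without the clusters of other types no gene at all was called with Kit or Mycn, so all these calls with Kit and Mycn were lost, and the median difference of the biogenesis genes between those clusters and the remaining cells was -2.43. Among the genes called in all cells were the nucleolar proteins Npm1 (Kit slope 0.55 ± 0.30, adjusted p = 0.023) and Ncl (0.55 ± 0.27, 0.024), and Nop58 of the box C/D particle (0.97 ± 0.18, 0.007). Of 38 translation factors, 1 rose with Kit, Hnrnpa1, which the list held beside the factors (0.69 ± 0.19, 0.018), 4 with Mycn and 3 with S phase. Of 81 mitochondrial ribosomal protein genes, 1 rose with Kit, none with Mycn and 5 with S phase. The median Kit slope was 0.29 for the ribosomal protein genes, 0.54 for biogenesis, 0.32 for translation factors and 0.32 for mitochondrial ribosomal proteins, and the differences between these lists were not tested.

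Over cells, the translation factors followed the members most. Their median partial Spearman correlation with the members' mean was 0.279 over 38 genes, against 0.228 for biogenesis, 0.175 for mitochondrial ribosomal proteins and 0.043 for 23 growth control genes. Rack1, a protein that sits on the small subunit, had 0.603, and Naca and Btf3, which bind emerging chains, had 0.579 and 0.531. Npm1 had 0.627. Of the growth control genes, Myc had 0.255 and Mycn 0.316 in all cells, and 0.026 and -0.01 in the remaining cells. Larp1, which binds the start of TOP mRNAs, had -0.01, and Mtor had 0.015.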

How the data were processed

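Per the submitters' processing notes, reads were processed with Salmon against GRCm38; the labels give no version and no tool for normalization or correction. What the authors deposited is 1 table of log2 values, normalized and batch-corrected, for 261 cells, and read counts per cell are unknown. The design assumed counts or TPM; the log2 values were used as deposited. Gene IDs were matched to GENCODE M21. Detection means a value more than 1e-06 away from the lowest value that repeats in the set of cells. Inside each of the 4 mouse ids a slope per 1 SD of each measure was fitted with detected genes and plate as covariates. The SD is that of the cells in the fit, so it changes when cells are left out. For each gene limma (3.58.1, R 4.3.3) tested the 4 slopes against 0, two-sided, with an intercept and a trend on the mean level, adjusted by Benjamini-Hochberg at 0.05 over all genes detected in at least 10% of cells. The p-values measure the spread between mouse ids. Genes in a list measure were left out of its test. Ward clustering used 1500 variable genes, 15 components and 8 clusters, without the members, centred by plate; a cluster counted as another type when at least 3 of its top 10 genes were markers of 1 or more of those types, and doublets were not removed. Differences between clusters are descriptions. Members, lists and markers were chosen with earlier results of these data known. Named genes were the members by role, paralogues with parents, called members, the highest and lowest slope, and the 10 most like genes; others were named after their values were seen. The fit was tested on simulated data. Alternatives changed the covariates, test, scaling, cells and mouse ids.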

Additional observations from a re-analysis of the deposited data

Results flagged for a closer look

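One of 39 values looked at per mouse id stood far from the others. The correlation over cells between the mean level of the ribosomal protein genes and the number of detected genes was -0.163 in mouse 2B, against 0.456, 0.465 and 0.377 in mice 1A, 1B and 2A. Chance gives such a gap in about 1 of 20 groups of this size. Mouse 2B held 8 of the 17 cells of the unnamed cluster, and without that cluster the correlation was -0.01 in mouse 2B and 0.544, 0.422 and 0.563 in mice 1A, 1B and 2A. For 2B it was -0.402 without the clusters of other types and -0.317 in the remaining cells. In the same order, 1A had -0.244 and -0.166, 1B had -0.002 and -0.125, and 2A had -0.046 and 0.166. Mouse 2B stayed lowest, but values of 0.377 or more were not kept by the other ids. The part of the other-type cells in the flagged gap was not tested.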

How the results depend on the processing

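The sign of the members' median slope on Kit and on Mycn was positive under every alternative run, and the counts of called members were not stable. The distance to all genes was not stable either. Without the depth covariate the members' median was 0.296 against 0.253 for all genes on Kit, and 0.247 against 0.271 on Mycn. Without the clusters of other types it was 0.033 against 0.029 on Kit and 0.011 against 0.022 on Mycn. In brackets stands the share of all genes called higher in the same setting. For Kit, 5 of 88 members were called (3.01%), against 58 with rank-based partial correlations (5.15%) and 49 without the depth covariate (31.8%). The count was 0 with the correction set as a covariate (1.22%), with centred cells (1.16%), without limma's trend (1.9%) and without the first 8 cells of each correction set (1.75%). It was also 0 without the clusters of other types (0%), without the unnamed cluster (1.76%) and without both (0%), and whichever mouse id was left out (0.587% to 1.74%). For Mycn, none was called (1.98%), against 35 with rank-based partial correlations (2.31%) and 35 without the depth covariate (35.9%). The count was 1 without the plate covariate (2.62%), 2 with correction sets as units (2.23%) and 1 without the unnamed cluster (2.02%). With a mouse id left out it was 0 to 2, with 2 without mouse 1B (1.42%). For S phase, 1 was called (5.27%), against 10 with rank-based partial correlations (5.52%), 19 without the depth covariate (34.7%) and 2 without the plate covariate (5.89%). The count was 0 without the trend (4.58%), with correction sets as units (3.31%), without the clusters of other types (0.737%) and without those and the unnamed cluster (0.67%). Leaving out a mouse id gave 0 to 1, with 1 without mouse 2A (3.32%). For G2M phase, the count was 11 without the depth covariate (10 higher and 1 lower, against 31.8% and 2.68% of all genes). For innate genes it was 0 throughout, where 0% to 2.51% of all genes were called higher. Rps4x had a Kit slope of -0.0083 without the clusters of other types, per 1 SD of Kit in the cells kept, against 0.43 in all cells. The mean pair correlation of 0.383 was 0.275 with centred cells and 0.220 without other types and the unnamed cluster. The cause of these changes was not tested. The settings without the unnamed cluster were chosen after seeing the data. With 4 mouse ids, 61 to 69 cells each and no read counts, small slopes cannot be told from 0. No paired analysis was possible because the labels give 1 population, and the differences between clusters, given within each mouse id, came from no test.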
